A study of Mus musculus with 8 samples.

Results

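The ATP-binding cassette (ABC) drug efflux pumps were examined as a set of 8 genes, namely Abcb1a, Abcb1b, Abcg2 and Abcc1 to Abcc5, of 22180 genes that had a probe set with a single gene symbol. They are the pumps best known for multidrug resistance, and each was read from the only probe set that carries its symbol alone. Expression was measured in colonic tumors of 4 MDR1A KO mice and 4 WT mice, 1 tumor and 1 GeneChip Mouse Gene 2.0 ST array per mouse. All mice were FVB/N males, injected once with azoxymethane (AOM) at 10 mg/kg at 6 weeks of age and then given 3 cycles of 7 days of 2.5% dextran sulfate sodium (DSS), with tumors, recorded as adenomas, taken on day 84. Both genotypes received AOM and DSS, and MDR1A, another name of Abcb1a, is disrupted in the whole KO animal rather than in the epithelium alone. No untreated colon was analysed here.

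Efflux pumps use ATP to move drugs, toxins and conjugated metabolites out of cells, and the gut epithelium carries several of them side by side. P-glycoprotein and BCRP sit on the luminal face of the epithelial cell and return absorbed compounds to the lumen, whereas most multidrug resistance-associated proteins (MRPs) export glutathione, glucuronide and sulfate conjugates across either the luminal or the basolateral membrane. In humans a single gene, ABCB1, encodes the drug-transporting P-glycoprotein, whereas mice use the pair Abcb1a and Abcb1b, of which Abcb1a is the main form in the intestine.

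The promoters of this pair are shown because Abcb1a is the gene lost here and Abcb1b is the other mouse gene for the same pump. In the RefSeq sequences of GRCm38.p6, 6 of the 8 pump genes had at least 1 promoter, 9 in all, and Abcc1 and Abcc3 were not matched. The 250 bases before each start are printed from 5′ to 3′ on the coding strand, and capitals mark the motif matches.
Abcb1a (chr5:8566841-8567090, + strand): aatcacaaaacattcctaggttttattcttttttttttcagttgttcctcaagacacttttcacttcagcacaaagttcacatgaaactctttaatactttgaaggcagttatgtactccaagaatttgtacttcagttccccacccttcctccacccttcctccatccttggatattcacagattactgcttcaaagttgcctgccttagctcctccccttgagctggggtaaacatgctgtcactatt
Abcb1b (chr5:8797897-8798146, + strand): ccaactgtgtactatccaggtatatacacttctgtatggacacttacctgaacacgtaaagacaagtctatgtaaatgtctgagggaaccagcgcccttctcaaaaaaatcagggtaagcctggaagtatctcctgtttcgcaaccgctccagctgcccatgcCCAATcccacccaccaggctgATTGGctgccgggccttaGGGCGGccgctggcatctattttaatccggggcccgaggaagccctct
The motifs searched on both strands were the CCAAT box (CCAAT), the GC box (GGGCGG), the xenobiotic response core (GCGTG) and the antioxidant response core (TGACNNNGC). The Abcb1b window held 2 CCAAT boxes, the second of them on the other strand as ATTGG, and 1 GC box, and its GC content was 52.8%. The Abcb1a window held 0 of the 4 motifs and had a GC content of 40.4%. Of 32851 mouse promoters of the same length, 33.8% held a CCAAT box, 32.7% a GC box, 28.2% the xenobiotic response core and 10.2% the antioxidant response core. Among the promoters not printed, one of the 2 for Abcc4 had a GC content of 72.0% and held 3 GC boxes, 2 xenobiotic response cores and 1 antioxidant response core, and that of Abcc2 held 2 CCAAT boxes and 1 antioxidant response core. A match is a run of letters and not a measured site.

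Cell type markers were read in the same tumors, and no gene of any marker list had an adjusted p under 0.05 in limma (lowest 0.435, for Adgre1). The counts at an unadjusted p under 0.05 that follow stand beside 2.74% lower and 3.66% higher over all 25341 named probe sets. Arrays had median log2 values from 5.62 to 5.67. The mean log2 level of 12 epithelial markers lay between 10.40 and 10.54 in MDR1A KO tumors and between 10.58 and 10.72 in WT tumors, without overlap. Of the 12, 2 (Krt20 and Cdx2) were lower at an unadjusted p under 0.05. Both had a log2 fold change of -0.65, whereas the median of the list was -0.13. Epcam was at -0.03 and Cdh1 at -0.09, and 2 markers (Elf3 and Cdx1) had a higher mean in MDR1A KO tumors. The mean of 12 macrophage and monocyte markers ran from 8.58 to 8.79 in MDR1A KO tumors and from 8.09 to 8.61 in WT tumors, and 8 of the 12, among them Adgre1 and Aif1, were higher at an unadjusted p under 0.05. WT replicate 3 stood apart in B cell markers, with a mean of 7.95 over 9 of them. Its 3 fellow WT tumors ranged from 5.07 to 6.09. WT replicate 3 also had the highest mean of 10 smooth muscle markers, 10.14, beside 9.44 to 9.85 in MDR1A KO tumors. WT replicates 2 (8.14) and 4 (7.98) lay farther from that range. At an unadjusted p under 0.05, 2 of 10 plasma cell and 1 of 8 T cell markers were higher. At that threshold 0 of 12 endothelial, 0 of 10 fibroblast, 0 of 10 smooth muscle and 0 of 9 B cell markers passed. All 10 smooth muscle markers still had a higher mean in MDR1A KO tumors. Their median log2 fold change of 0.74 was the largest of the marker lists. In these bulk tumors, fewer cells of a type and less RNA per cell cannot be told apart.

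Abcb1a itself was lower in MDR1A KO tumors, and of the 5 pump genes with a lower mean there it was the only one that passed the test. It measured 6.14, 6.13, 6.37 and 6.87 on the log2 scale in MDR1A KO tumors and 8.69, 9.10, 9.46 and 8.93 in WT tumors. Every MDR1A KO tumor lay below every WT tumor, and MDR1A KO replicate 4 was the highest of its genotype, as WT replicate 3 was of its own. The means were 6.38 ± 0.35 in MDR1A KO and 9.04 ± 0.32 in WT tumors (SD, n = 4 each), which is a change of -2.67 on the log2 scale (standard error, SE, 0.20, 95% interval -3.12 to -2.21, adjusted p = 0.00599 from limma). Expressed as a ratio, Abcb1a was 6.35-fold lower (95% interval 4.64-fold to 8.69-fold). The two-sided exact permutation test gave p = 0.0286, the smallest that 4 tumors against 4 allow. The adjusted call depended on the model and on 1 tumor, since the adjusted p was 0.253 with the methods' t-test, 0.0690 in limma with the replicate number as a block and 0.0598 in limma once MDR1A KO replicate 3 was left out (log2 fold change -2.66). No source used here places the probe set relative to the disrupted stretch of the gene.

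Among all named probe sets, 0.0158% had an adjusted p under 0.05 in either direction, and Abcb1a was the only pump gene among them. At an unadjusted p under 0.05, 1 of the 8 pump genes was lower and 0 were higher, whereas 2.74% of all named probe sets were lower and 3.66% higher. Abcb1a alone of the 8 also met the methods' criterion of an unadjusted p under 0.05 with at least a 2-fold decrease, which 0.0829% of all named probe sets met. The 2 genotypes did not overlap for Abcb1a only, whereas 1.59% of all named probe sets were lower without overlap and 2.13% higher without overlap. With Abcb1a counted, 3 of the 8 pump genes had a higher and 5 a lower mean in MDR1A KO tumors, with a median log2 fold change of -0.20 beside a median of 0.00098 over all named probe sets.

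**Figure D1:**
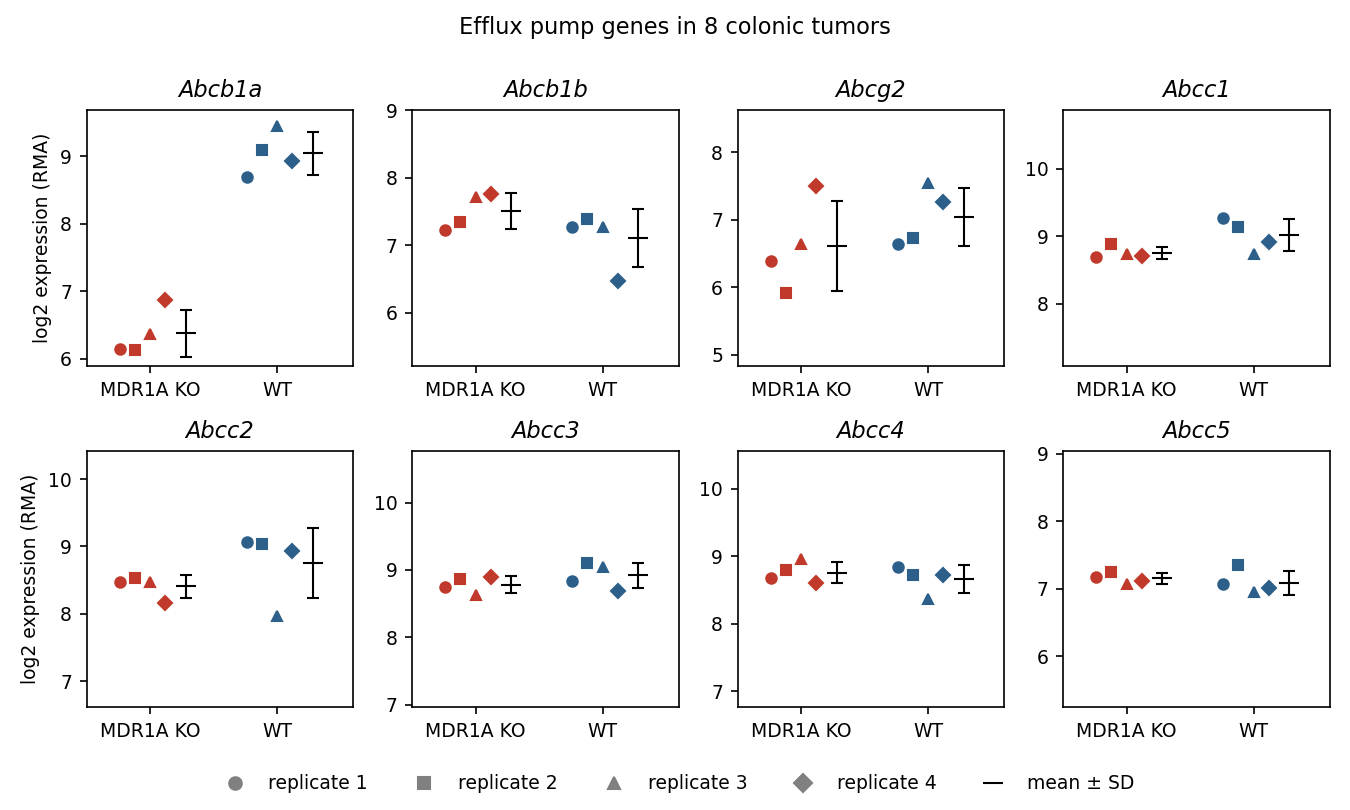
Log2 expression (vertical axis, RMA) of the 8 pump genes in 4 MDR1A KO tumors (red, left) and 4 WT tumors (blue, right) of each panel, with the symbol giving the replicate and bars the mean ± SD. All panels span the same number of log2 units. The genotypes separate for Abcb1a, 6.13 to 6.87 in MDR1A KO against 8.69 to 9.46 in WT tumors, and overlap for the 7 other genes.

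Abcb1b, the second mouse P-glycoprotein gene, did not differ detectably between genotypes. It measured 7.23, 7.34, 7.72 and 7.76 in MDR1A KO tumors and 7.28, 7.40, 7.27 and 6.46 in WT tumors. MDR1A KO replicates 3 and 4 lay above all WT tumors, MDR1A KO replicates 1 and 2 lay among them, and WT replicate 4 lay far below the rest. The means of 7.51 ± 0.27 in MDR1A KO and 7.10 ± 0.43 in WT tumors (SD, n = 4 each) gave a log2 fold change of 0.41 (SE 0.21, 95% interval -0.07 to 0.89, adjusted p = 0.803 from limma, exact permutation test p = 0.20). The interval spans ratios from 0.950 to 1.85. Without WT replicate 4 the log2 fold change was 0.19. Abcb1b lies next to Abcb1a on chromosome 5. Abcb4, a phosphatidylcholine translocase best known from bile, had a log2 fold change of 0.06 (95% interval -0.17 to 0.28, adjusted p = 0.948 from limma). Abcb11, the bile salt export pump, differed by -0.17 and Abcb5 by -0.10 on the log2 scale, with overlapping genotypes for both. The probe sequences were not used here, so how far the probe set of one P-glycoprotein gene also reads the other was not tested.

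Abcg2 encodes BCRP, a transporter that works as a dimer at the luminal membrane and exports sulfate conjugates, dietary toxins and many drugs. It measured 6.39, 5.92, 6.64 and 7.51 in MDR1A KO tumors and 6.64, 6.73, 7.54 and 7.26 in WT tumors. It was the most variable of the 8 pump genes, with a pooled within-genotype SD of 0.56 beside a median of 0.17 over all named probe sets. MDR1A KO replicate 4 reached the level of the highest WT tumors, and MDR1A KO replicate 2 was the lowest of all 8. The means were 6.61 ± 0.67 in MDR1A KO and 7.04 ± 0.43 in WT tumors (SD, n = 4 each), a log2 difference of -0.43 (SE 0.33, 95% interval -1.16 to 0.30, adjusted p = 0.869 from limma, exact permutation test p = 0.257). In ratios, the interval runs from 0.447 to 1.23. Without MDR1A KO replicate 4 the log2 fold change was -0.73, with an unadjusted p under 0.05 and an adjusted p of 0.821 from limma. It was -0.20 without MDR1A KO replicate 2 and -0.26 without WT replicate 3, so that single tumors moved the value in both directions.

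Abcg2 moved over the tumors with the mean of markers of absorptive colonocytes, the mature surface cells of the colon. The mean log2 level of 9 such markers was 8.32, 8.17, 8.50 and 9.37 in MDR1A KO tumors and 8.23, 8.58, 9.50 and 9.50 in WT tumors. In each genotype the tumor with the lowest Abcg2 was also the one with the lowest marker mean, and within MDR1A KO tumors the 2 orders were identical. The same held for Abcb1a, which was lowest in MDR1A KO replicate 2 (6.13) and in WT replicate 1 (8.69). Within MDR1A KO tumors the order of Abcb1a was also that of the marker mean, but within WT tumors it was not. WT replicate 4 had a marker mean of 9.50 and an Abcb1a value of 8.93. That Abcb1a value was below the 9.10 of WT replicate 2, whose marker mean was 8.58. Single markers did not all follow Abcg2. Slc9a3 was highest of the MDR1A KO tumors in replicate 2 (10.35), where Abcg2 was lowest. It was lowest of the WT tumors in replicate 3 (10.04), where Abcg2 was highest. Cyp2c55 was lowest of the MDR1A KO tumors in replicate 4 (6.99). The mean leans on Slc26a3 (SD 1.39 in MDR1A KO, 1.74 in WT) and Car4 (1.32 and 1.63), the most variable markers. Of the markers 0 of 9 had an unadjusted p under 0.05, and their median log2 fold change was -0.40. The part of these cells in the difference of Abcg2 was not tested.

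The 5 MRP genes differed less between genotypes than Abcb1a and had smaller pooled SDs than Abcg2, from 0.14 for Abcc5 to 0.39 for Abcc2. Abcc1, which encodes MRP1, the basolateral exporter of glutathione conjugates and leukotriene C4, measured 8.69, 8.89, 8.74 and 8.70 in MDR1A KO tumors and 9.27, 9.14, 8.73 and 8.91 in WT tumors. WT replicate 3 lay among the MDR1A KO tumors and the 3 other WT tumors lay above all 4 of them. The means of 8.76 ± 0.09 in MDR1A KO and 9.01 ± 0.24 in WT tumors (SD, n = 4 each) gave a log2 fold change of -0.26 (SE 0.12, 95% interval -0.53 to 0.02, adjusted p = 0.790 from limma, exact permutation test p = 0.0857). The interval spans ratios from 0.691 to 1.01. Without WT replicate 3 the log2 fold change was -0.35, with an unadjusted p under 0.05, and without WT replicate 1 it was -0.17.

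Abcc2, encoding MRP2, exports glucuronide and glutathione conjugates across the luminal membrane. It measured 8.47, 8.53, 8.47 and 8.16 in MDR1A KO tumors and 9.06, 9.04, 7.97 and 8.93 in WT tumors. As for Abcc1, 3 WT tumors lay above all MDR1A KO tumors, and WT replicate 3 was the exception, here the lowest of all 8. The means of 8.41 ± 0.17 in MDR1A KO and 8.75 ± 0.52 in WT tumors (SD, n = 4 each) lay apart by a log2 fold change of -0.34 (SE 0.23, 95% interval -0.86 to 0.18, adjusted p = 0.850 from limma, exact permutation test p = 0.229). Without WT replicate 3, the tumor that stood apart in B cell markers, the log2 fold change was -0.60. That run gave an unadjusted p under 0.05 and an adjusted p of 0.204, both from limma. Without WT replicate 1 the log2 fold change was -0.24.

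Abcc3, Abcc4 and Abcc5 had log2 fold changes within 0.14 of 0 and overlapping genotypes. Abcc3 (MRP3), a basolateral exporter of bile acids and glucuronides, measured 8.74, 8.87, 8.63 and 8.89 in MDR1A KO tumors and 8.84, 9.10, 9.04 and 8.69 in WT tumors. The lowest value was in MDR1A KO replicate 3 and the highest in WT replicate 2, with the other tumors intermixed. The means of 8.78 ± 0.12 in MDR1A KO and 8.92 ± 0.19 in WT tumors (SD, n = 4 each) differed by -0.14 on the log2 scale (SE 0.11, 95% interval -0.39 to 0.12, adjusted p = 0.879 from limma, exact permutation test p = 0.286). The interval corresponds to ratios from 0.764 to 1.09. The difference was -0.074 without WT replicate 2, -0.085 without MDR1A KO replicate 3 and -0.21 without WT replicate 4.

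Abcc4 (MRP4) and Abcc5 (MRP5) export cyclic nucleotides, and Abcc4 also prostaglandins. Abcc4 measured 8.67, 8.79, 8.96 and 8.60 in MDR1A KO tumors and 8.84, 8.73, 8.37 and 8.72 in WT tumors. WT replicate 3 was the lowest of the 8 tumors and carried the difference, since the log2 fold change was 0.09 with all tumors (SE 0.12, 95% interval -0.19 to 0.37, adjusted p = 0.928 from limma, exact permutation test p = 0.543) and -0.0044 without that tumor. It was 0.026 without MDR1A KO replicate 3, and without MDR1A KO replicate 4 or WT replicate 1 it was 0.15. Abcc5 measured 7.17, 7.25, 7.07 and 7.11 in MDR1A KO tumors and 7.06, 7.34, 6.94 and 7.00 in WT tumors, which is a log2 fold change of 0.06 (SE 0.10, 95% interval -0.17 to 0.29, adjusted p = 0.948 from limma, exact permutation test p = 0.543). WT replicate 2 held its highest value and the MDR1A KO tumors lay within the WT range. For Abcc5, leaving out WT replicate 2 gave 0.15 and leaving out WT replicate 3 gave 0.013, with 0.028 without MDR1A KO replicate 2 and 0.033 without WT replicate 4. For both genes the 95% interval lay inside a 2-fold change in either direction, as it did for each pump gene other than Abcb1a and Abcg2.

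**Figure D2:**
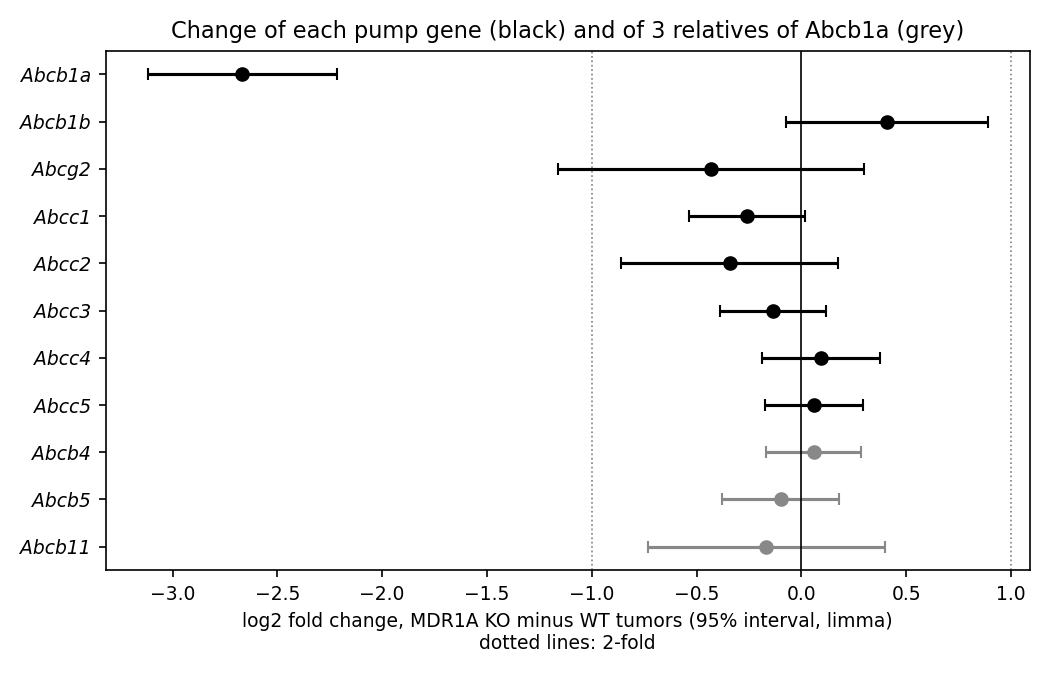
Log2 fold change, MDR1A KO over WT (horizontal axis), for the 8 pump genes (black) and 3 members of the Abcb1a subfamily (grey), with 95% intervals from limma and 4 tumors per genotype. Abcb1a, at -2.67, is the only gene whose interval excludes 0, and of the 7 other pump genes the interval of Abcg2 alone, -1.16 to 0.30, reaches past a 2-fold decrease.

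The loss of Abcb1a was set against the change of each other pump, as the difference of log2 values within each tumor. The change of Abcb1a was lower than that of Abcb1b by 3.07 and lower than that of Abcg2 by 2.24 on the log2 scale. Against Abcc1 to Abcc5 it was lower by 2.32 (Abcc2) to 2.76 (Abcc4). In each of the 7 comparisons the 4 MDR1A KO tumors lay below the 4 WT tumors (two-sided exact permutation test, p = 0.0286 in each, the smallest possible). This p could not have been larger, because the gap in Abcb1a, from 6.87 to 8.69, exceeded the range of every other pump. The widest of those was Abcg2, from 5.92 to 7.54 over the 8 tumors. The p therefore restates the loss of Abcb1a and does not test the other pumps. These comparisons share the values of Abcb1a and are not independent of each other.

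Among WT tumors, replicate 3 held the highest Abcb1a and Abcg2 and the lowest Abcc1, Abcc2, Abcc4 and Abcc5. After each gene was centred on its genotype mean, Abcb1a and Abcg2 varied together (Pearson r = 0.86, Spearman rho = 0.81, 8 tumors), and both were highest in MDR1A KO replicate 4 and WT replicate 3. Abcc2 varied with Abcc4 (r = 0.86, rho = 0.76) and with Abcc1 (r = 0.81, rho = 0.69). Abcb1a ran opposite to Abcc2 (r = -0.78, rho = -0.62). These values describe 28 pairs over 8 tumors that also share an array and a cell makeup. The r of each pair was next taken without the 2 tumors farthest from the median of the gene named first. It was then 0.46 for Abcb1a with Abcg2, 0.32 for Abcc2 with Abcc4, 0.44 for Abcc1 with Abcc2 and -0.07 for Abcb1a with Abcc2. Leaving out such tumors narrows the range of that gene, so a lower r does not show that a relation rested on 2 tumors. In MDR1A KO and in WT tumors alone (4 each), r was 0.96 and 0.73 for Abcb1a with Abcg2. For Abcb1a with Abcc2 the 2 values were -0.96 and -0.87, for Abcc2 with Abcc4 0.65 and 0.98, and for Abcc1 with Abcc2 0.52 and 0.85. Abcg2 with Abcc1 kept its value, at r = -0.71 with all tumors (rho = -0.79) and -0.74 without the 2 farthest. So did Abcg2 with Abcc5, at -0.59 in both cases, and Abcc1 with Abcc5 rose from 0.61 to 0.83.

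**Figure D3:**
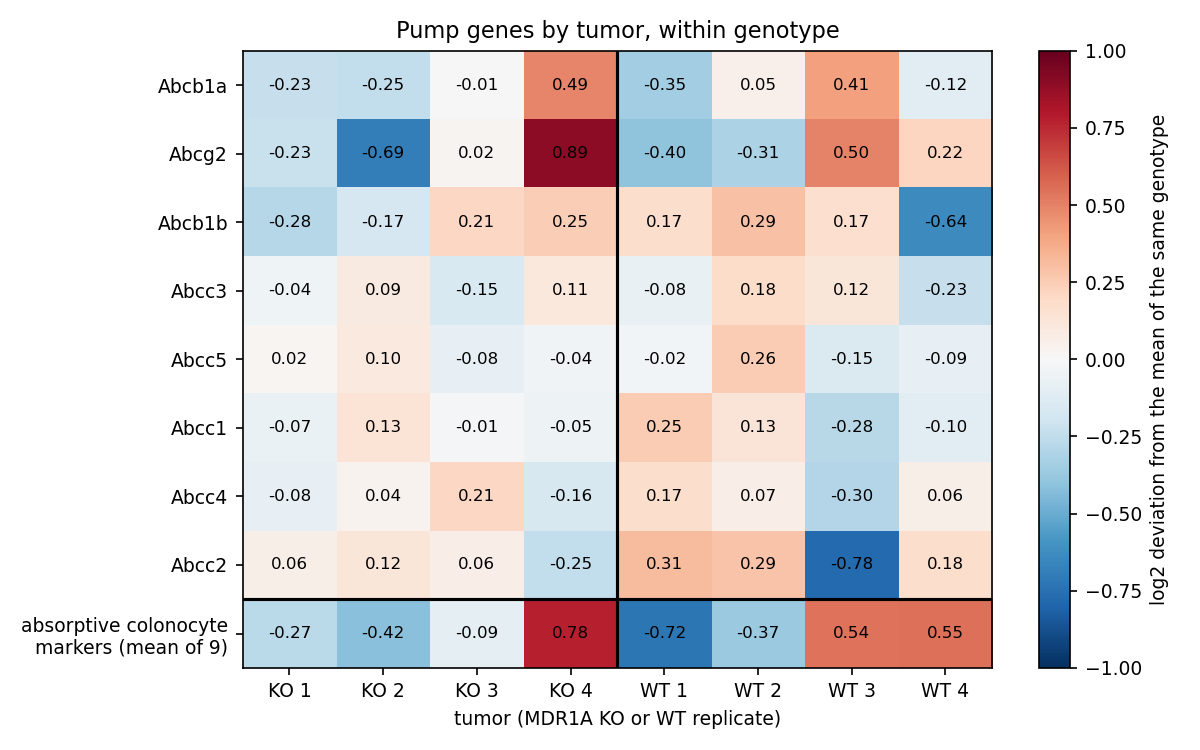
Deviation of each pump gene from the mean of its genotype (colour and printed value, log2 units) in MDR1A KO tumors (left of the line) and WT tumors (right), with the mean of 9 absorptive colonocyte markers in the bottom row. Abcb1a, Abcg2 and the markers are high in MDR1A KO replicate 4 and WT replicate 3, the markers also in WT replicate 4, and Abcc2 is at its lowest in each genotype in the same 2 tumors.

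The genes that followed each pump most closely differed from pump to pump. Among 15020 genes, the highest genotype-centred correlations with Abcb1a were those of As3mt, an arsenic methyltransferase (r = 0.977, rho = 0.952), the mucin Muc5b (r = 0.976, rho = 0.952) and the nucleotidase Entpd5 (r = 0.966, rho = 0.833). For Abcg2 they were Cacng4 (r = 0.996), the glutamate decarboxylase Gad1 (r = 0.983) and Cracr2a (r = 0.983), with rho of 0.976 or above. For Abcb1b they were the ornithine aminotransferase Oat (r = 0.988, rho = 0.881), Ttc30b (r = 0.984, rho = 0.881) and Sertad2 (r = 0.975, rho = 0.667). Abcc1 was followed by the inflammasome receptor Nlrc4, the tRNA methyltransferase subunit Trmt6 and Adss, Abcc2 by Ypel1, 5430416N02Rik and the catenin Arvcf, Abcc3 by Hps5, the dystroglycan gene Dag1 and Sec23a, Abcc4 by Mrpl22, Rfxap and Zfp58, and Abcc5 by Mir3097, Polr3c and Mapk15, with r from 0.969 to 0.993. With 8 tumors and this many genes searched, the r of the closest genes are a description of these tumors alone.

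Outside the 8 drug pumps, the other ABC transporters were counted in the same fit. Of 45 listed, 43 were measured, 23 with a higher and 20 with a lower mean in MDR1A KO tumors, and their median log2 fold change was 0.02. At an unadjusted p under 0.05, 2 were lower (Abca5 and Abca8b) and 1 was higher (Abcg1, a cholesterol exporter), beside 2.74% lower and 3.66% higher over all named probe sets, and 0 had an adjusted p under 0.05 in limma. Abca5, a lipid transporter of lysosomes, measured 6.67, 6.37, 5.94 and 6.25 in MDR1A KO tumors and 7.49, 7.46, 6.97 and 6.78 in WT tumors. The genotypes did not overlap, and the log2 difference of -0.87 (SE 0.20, adjusted p = 0.496 from limma, exact permutation test p = 0.0286) was the lowest of this list. Abca8b also had non-overlapping genotypes, with a log2 fold change of -0.35 (adjusted p = 0.738 from limma), and Abcg1 had one of 0.37 with overlap (adjusted p = 0.756). Abcf3, a family member without a membrane-spanning part, also had non-overlapping genotypes, higher in MDR1A KO tumors by 0.09 (adjusted p = 0.884 from limma), and is named after its values were seen. Non-overlap was found in 1.59% of all named probe sets in the lower and 2.13% in the higher direction. Abca14, the fourth by its p, was at -0.19.

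Of the xenobiotic-sensing transcription factors, several of which switch on pump genes, 0 of 15 measured members (16 listed) passed an unadjusted p under 0.05, with a median log2 fold change of -0.04. Nr1i2, the pregnane X receptor, measured 7.71, 7.63, 7.56 and 7.69 in MDR1A KO tumors and 7.55 in WT replicate 1, with 7.89 or more in the 3 other WT tumors. Its genotypes overlapped only through WT replicate 1, and its log2 fold change was -0.19 (adjusted p = 0.819 from limma). Pparg was at -0.23, Ppara at 0.19 and Nfe2l2, the NRF2 gene, at -0.12.

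Genes that work beside the pumps were counted in the same way. Of 29 measured drug and bile acid carriers of the SLC families (32 listed), most of them uptake carriers and some exporters, 3 were higher (Slc29a3, Slco3a1 and Slco4c1) and 2 lower (Slc29a2 and Slc19a1) at an unadjusted p under 0.05, beside 3.66% higher and 2.74% lower over all named probe sets, with a median log2 fold change of -0.06. Slc29a3 and Slc29a2 are both equilibrative nucleoside transporters and lay on opposite sides, at 0.28 and -0.23, each without overlap between genotypes (2.13% of all named probe sets were higher and 1.59% lower without overlap). Slc29a3 measured 8.50, 8.52, 8.56 and 8.52 in MDR1A KO tumors and 8.19, 8.30, 8.42 and 8.08 in WT tumors, whereas Slc29a2 measured 6.44, 6.48, 6.60 and 6.51 in MDR1A KO tumors and 6.90, 6.68, 6.67 and 6.70 in WT tumors. Slc19a1, the reduced folate carrier, was at -0.30. None of these carriers had an adjusted p under 0.05 in limma.

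Of 18 measured conjugating and glutathione-synthesis genes (18 listed), which make the substrates of the MRPs, 15 had a lower and 3 a higher mean in MDR1A KO tumors, with a median log2 fold change of -0.16. At an unadjusted p under 0.05, 3 were lower and 0 higher, beside 2.74% and 3.66% of all named probe sets, and 0 had an adjusted p under 0.05 in limma. The 3 were the glutathione synthetase Gss at -0.33, the glutamate-cysteine ligase subunit Gclm at -0.23 and the glucuronosyltransferase Ugt2b34 at -0.22, and Mgst3 followed at -0.29 above that threshold. The epithelial marker mean was lower in all MDR1A KO tumors than in any WT tumor, as given above. Krt20 and Cdx2 changed most in it, and its part in these counts was not tested. Of 11 measured apical scaffold and trafficking genes (13 listed), 0 passed an unadjusted p under 0.05, with a median of -0.03. Among them Ezr was at -0.16 and Rdx at -0.11.

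**Figure D4:**
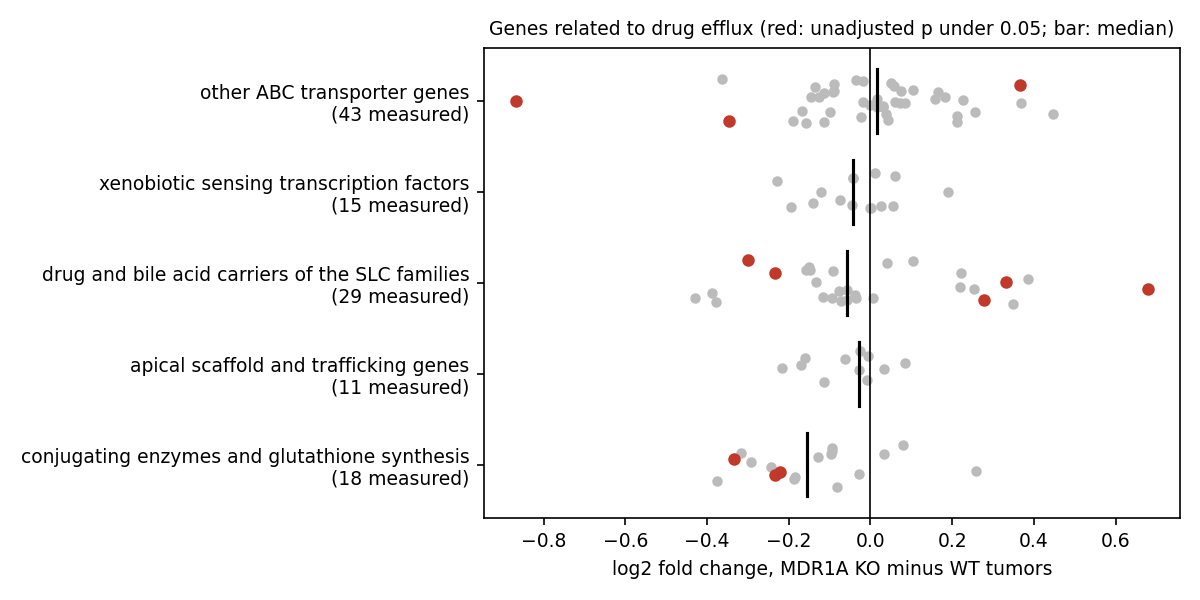
Log2 fold change, MDR1A KO over WT (horizontal axis), for the measured genes of 5 lists related to drug efflux, 1 point per gene, with red for an unadjusted p under 0.05 in limma and black bars for list medians. Medians run from -0.16 for conjugating and glutathione-synthesis genes to 0.02 for other ABC transporters, and Abca5 at -0.87 is the point farthest left.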

How the data were processed

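RNA from 8 tumors was arrayed, 4 from MDR1A KO and 4 from WT mice. The log2 values are those the authors deposited, computed by RMA (background correction, quantile normalization and probe set summary) in Affymetrix Expression Console 1.4, per the labels. The genome build behind the array annotation was not stated in any source used here. RNA was extracted with either of 2 kits, and which tumor had which is not stated. Of 41345 probe sets, 25341 had a gene symbol in the platform annotation, 1820 of them several.

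Log2 fold changes, standard errors, 95% intervals and two-sided p-values came from limma 3.58.1 (lmFit and eBayes, R 4.3.3), adjusted by Benjamini-Hochberg over all named probe sets, with 0.05 as the threshold. Single values were also compared by exact permutation over 70 arrangements. The unpaired test that the study used goes by the name of the methods' t-test. Likeness between genes is Pearson's r of values centred on the genotype mean, among genes outside the dimmest 33.3%, and carries no p. For lists, genes were named by smallest p, up to 4 in each list. The pump genes, the lists and the rule for names were chosen with earlier results of these data known. Alternatives were the methods' t-test, other feature sets, a dim filter, 2 further normalizations, another variance model, array weights, a replicate block, probe set means and each tumor left out. Python 3.11.15 with scipy 1.17.1, pandas 2.3.3, numpy 2.4.6 and matplotlib 3.10.9 made the tables and plots. For arrays, their number limits the precision.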

Additional observations from a re-analysis of the deposited data

Results flagged for a closer look

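Among the 8 pump genes and 41 related or marker genes, 98 groups of 4 tumors were examined for a tumor far from the rest of its genotype, and 6 held one, where chance alone gives about 1 in 20 groups. Of the 16 groups of the pump genes, 3 held one. Abcc2 was lowest in MDR1A KO replicate 4, at 8.16 with the next tumor at 8.47, and lowest in WT replicate 3, at 7.97 with the next at 8.93. Abcb1b was lowest in WT replicate 4, at 6.46 with the next at 7.27. Outside the pumps, Abca14 was highest in MDR1A KO replicate 1, at 4.67 with the next at 4.60, and Slc29a2 was highest in WT replicate 1, at 6.90 with the next at 6.70. Rdx was lowest in MDR1A KO replicate 1, at 8.94 with the next at 9.07.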

How the results depend on the processing

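The log2 fold change of Abcb1a ran from -2.83 to -2.53 with 1 tumor left out, and its unadjusted p stayed under 0.05 in all 18 alternatives. It was -2.67 with the methods' t-test (adjusted p = 0.253) and with the replicate block (adjusted p = 0.0690 in limma), both above the threshold, so that 0 pump genes had an adjusted p under 0.05 there. With 1 tumor left out that count ran from 0 (without MDR1A KO replicate 3) to 1. The count of pump genes lower at an unadjusted p under 0.05 was 2 with arrays centred on their medians, quantile-normalized once more or weighted, Abcc1 joining Abcb1a. With 1 tumor left out it ran from 1 to 3, with Abcg2 added without MDR1A KO replicate 4, and Abcc1 and Abcc2 added without WT replicate 3. Abcc4 ran from -0.0044 (without WT replicate 3) to 0.15 with 1 tumor left out. No pump gene was higher at an unadjusted p under 0.05 in limma or any alternative run. The cause of these shifts was not tested. Replicate numbers are shared by the titles but do not pair the tumors: same-numbered deviations correlated at 0.11, 0.02, -0.10 and 0.35, and only those numbered 4 correlated best with each other. With 4 tumors per genotype, a 95% interval as wide as that of Abcg2, -1.16 to 0.30, leaves a 2-fold decrease undecided.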
